A study of Arabidopsis thaliana with 4 samples.

Results

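The transcript levels of Arabidopsis thaliana plants held for 30 min in crotonaldehyde vapour were set against those of plants held for 30 min with acetonitrile, the solvent, alone. Both groups were wild-type Columbia-0 labelled as seedlings, raised on peat pellets at 23 °C with a 14 h day and a 10 h night once 3 days of cold had passed. They were shut in a 340 cm3 clear box at 25 °C in the light with 3 µl of liquid on paper under the lid, a 1 M crotonaldehyde solution in acetonitrile for the treated plants, which the submitters give as 10 µM. RNA was pooled from at least 6 plants per group and read on 1 one-colour Agilent array per group. The series holds 4 arrays in all, and the other two were from (E)-2-pentenal and 3-hepten-2-one, given in the same way. Genes were included where the spot was well above background on both the crotonaldehyde and the acetonitrile array, which held for 18554 of the 25426 genes with a matched probe. A further 714 genes were well above background on the crotonaldehyde array only, 1023 on the acetonitrile array only and 5135 on neither.

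Crotonaldehyde is a small aldehyde with a double bond next to its carbonyl group, which lets it bond to thiols and amines of proteins and glutathione. Plants release and form such reactive carbonyls when membrane lipids are oxidised, and they dispose of them by coupling to glutathione, by reduction and by oxidation. Damaged or misfolded proteins are met in plant cells by heat shock factors, the transcription factors that switch on the genes of heat shock proteins. These proteins are chaperones: small heat shock proteins hold unfolded clients, HSP70 and HSP90 refold them with their partners, and HSP101 pulls them out of aggregates.

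Levels are given as the scaled signal, the processed spot intensity times a factor that puts the 75th percentile of each array at 1000. The ratio of 2 scaled signals of a gene is its fold difference, and levels of different genes are not comparable because each probe binds its target differently. Differences are crotonaldehyde minus acetonitrile on the log2 scale. With 1 array per group there was no replicate and hence no test. A gene is called higher or lower where its difference reached 2-fold, a rule of size only. The error printed after ± is the scanner software's own estimate for the 2 spots, which had a median of 0.20 on the log2 scale, and repeat spots of a probe gave differences with an SD of 0.11 (16 probes). Neither covers the spread between plants. Where a gene was well above background on 1 array only, the fold is given as a lower bound against the faintest signal that counted as well above background on the other array, or against the gene's own signal there if higher.

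The 2 arrays lay on different slides and were scanned separately, while the arrays of acetonitrile, (E)-2-pentenal and 3-hepten-2-one shared 1 slide and 1 scan, so slide and crotonaldehyde cannot be told apart. The crotonaldehyde array was dimmer, with a 75th percentile of 1048 processed units against 1667, and 72.6% of its spots against 72.9% were well above background. It also stood apart from all 3 others in genes of the growing shoot tip. Of 15 markers of the shoot apex and young leaves, 12 were well above background on each of the other arrays and 5 on the crotonaldehyde array, and their summed scaled signal was 3998, 3368 and 3577 on those 3 and 383 on the crotonaldehyde array. The defining markers STM, KNAT1 and KNAT6 were not well above background there. Of 26 cell cycle genes, the sum was 15465, 13597 and 14567 against 2288. Less RNA per cell and fewer cells of a type cannot be told apart in whole plants, and the part of tissue make-up in the differences below was not tested. Photosystem and Calvin cycle genes, which mark green tissue, were all well above background on both arrays, and their sum was 3818190.0 against 4390350.0. Of 24 root markers, 13 were well above background after acetonitrile and 9 after crotonaldehyde, with sums of 641 and 361. EXPA7, EXPA18, PIN2 and HAK5 were at background on both. Of 10 flower markers, 8 and 5 were well above background on these 2 arrays, with sums of 996 and 1536. After (E)-2-pentenal and 3-hepten-2-one, 16 and 14 of the root markers and 10 and 6 of the flower markers were well above background. SEP4 was higher (1.69), and AG was seen after crotonaldehyde and not after acetonitrile, with a bound of 2.3-fold. AP1, AP3 and PI were seen after acetonitrile and not after crotonaldehyde, at scaled signals of 60.3, 22.9 and 63.6.

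After crotonaldehyde, 1678 genes (9.04%) were at least 2-fold higher and 2809 (15.1%) at least 2-fold lower than after acetonitrile. The median gene differed by 0.01, and the quartiles of all genes lay at -0.53 and 0.44. At least 8-fold, 167 genes were higher and 363 lower, and at least 32-fold, 35 were higher and 36 lower. Higher genes made up 37.4% of those past 2-fold with this scaling, but 59.1% when the arrays were scaled to their medians, which moves every difference up by 0.32. With the authors' own scaling, which shifts every difference by -0.15, the share was 28.2%. Which direction held more genes therefore rests on the scaling, and the counts below are given against the percentages of this paragraph.

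The calls were not spread evenly over signal. Among the dimmest decile of the genes 27.6% were lower and 6.90% higher, and among the brightest decile 6.30% were lower and 18.3% higher. The median difference ran from -0.34 in the dimmest decile to 0.19 in the brightest. Lower genes were thus mostly dim by this mean, which a low signal on the crotonaldehyde array itself pulls down. Whether the lower brightness of the crotonaldehyde array has a part in this was not tested.

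**Figure D1:**
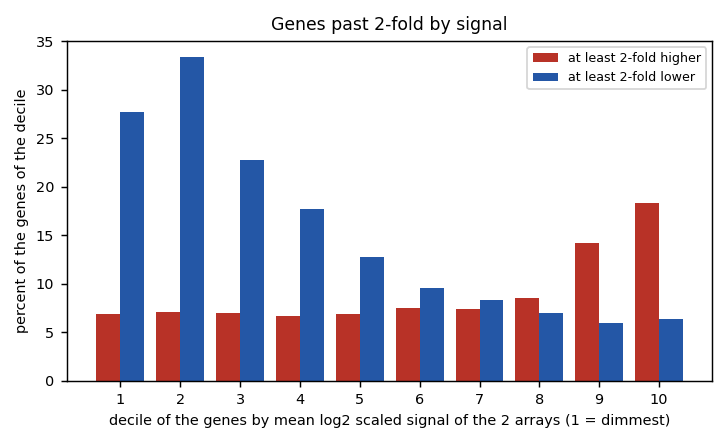
Percent of the genes in each decile by signal (x axis, 1 the dimmest; 1855 or 1856 genes each) that were at least 2-fold higher (red) or lower (blue) after crotonaldehyde than after acetonitrile, 1 array each. Lower genes make up 33.4% of the second decile and 6.30% of the brightest, and higher genes 18.3% of the brightest.

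The 14 genes most above acetonitrile differed by 129.7-fold to 1255-fold and were mostly genes of protein folding. The greatest difference was that of AT1G71000, which carries no symbol in RefSeq, with scaled signals of 15.6 on the acetonitrile array and 19522 on the crotonaldehyde array, a difference of 10.29 ± 0.27. Then came AT1G07400, AT1G59860, AT2G29500 and AT5G51440, all of the small heat shock protein list, and AT5G54165, another locus without a symbol, at 61.4 against 17612. HSFA2, the heat shock factor that sustains the heat response, was 252-fold higher. HSP70B, HSP70T-2, HSP90.1 and HSP101 are chaperones, HOP3 links HSP70 to HSP90, and BAG6 is a partner of HSP70, and together with BHLH100, a regulator of iron uptake, they fill the other places. Of the 14, BHLH100 differed from the rest in that it was at background after both other volatiles, as described with the iron genes.

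**Figure D2:**
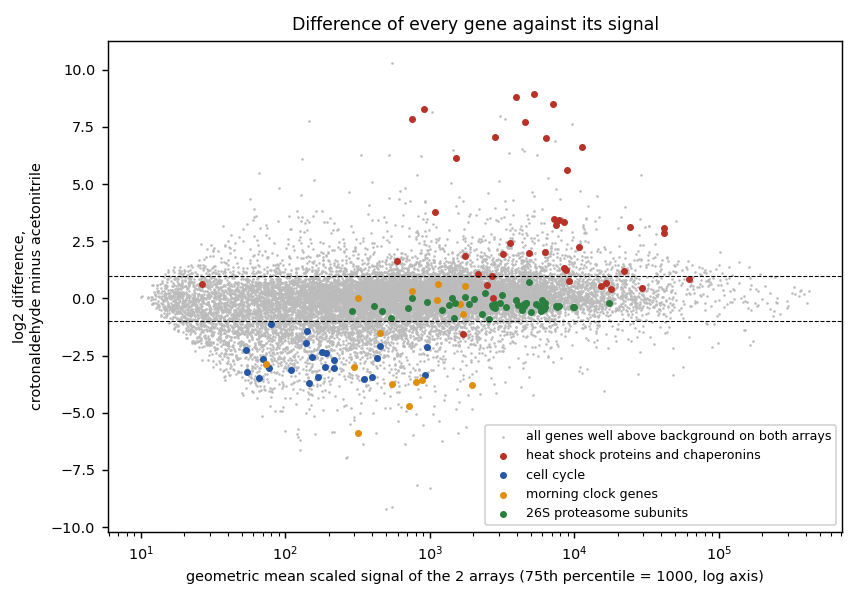
Log2 difference of each of the 18554 genes (y axis) against the geometric mean of its 2 scaled signals (x axis, log scale), 1 array per group, with dashed lines at 2-fold. Heat shock proteins and chaperonins (red) reach a difference of 8.92, all 23 measured genes of the cell cycle list (blue) lie below the lower line, morning clock genes (orange) lie at or below it for 9 of 16, and all 47 subunits of the 26S proteasome (green) lie between the lines.

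All but 1 of the 17 small heat shock proteins were higher after crotonaldehyde. Of the 9 well above background on both arrays, 8 were higher and 1 lower, with a median of 6.16, against 9.04% of all genes higher. The other 8 were well above background on the crotonaldehyde array only, each with a bound past 2-fold, against 31.1% of the 713 genes with such a bound. With these at their bounds the median of the list was 7.73. Of the 17, 10 are given by locus because RefSeq holds no symbol for them, and probes of this family can bind transcripts of close relatives.

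The folds varied widely among the small heat shock proteins. AT1G07400 had scaled signals of 241 against 116964 (acetonitrile against crotonaldehyde, as in all such pairs), AT1G59860 187 against 84008, and AT2G29500 373 against 136398. AT5G37670 at 181 against 12947, AT1G54050 at 1279.9 against 62254 and AT2G19310 at 2165 against 24080.5 were 71.4-fold, 48.6-fold and 11.1-fold higher. HSP18.2, of the cytosolic class I, differed least of the higher members, 339 against 1052, or 3.1-fold. From background, AT1G53540 reached 54724, at least 4789-fold higher, and HSP17.4 reached 11428, at least 1204-fold. HSP17.6A and HSP17.6II, of cytosolic class II, reached 10828 and 8002, at least 1141-fold and 839.7-fold. Among members of organelles HSP23.6-MITO of mitochondria was at least 212-fold, HSP21 of chloroplasts at least 77.3-fold, and HSP22.0 of the endoplasmic reticulum at least 36.1-fold higher. AT1G52560 was at least 52.3-fold higher. The single lower member, AT4G21870, had 2891 against 996, and stood at 1005 and 989 after the other volatiles.

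Of 21 heat shock factors, 17 were measured on both arrays, and 9 were higher and 2 lower, with a median of 1.17. HSFA2 had scaled signals of 193 after acetonitrile, 40265 after (E)-2-pentenal, 37732 after 3-hepten-2-one and 48559.5 after crotonaldehyde. The acetonitrile array alone was low. HSFA7A was 11.1-fold higher, HSFA4A 3.29-fold, HSFA8 2.54-fold and HSFA4C 2.49-fold. HSFA7B, at background after acetonitrile, was at least 7.06-fold higher, and HSFA6B at least 2.12-fold. The class B factors HSFB2A, HSFB1 and HSFB2B, which act mainly as repressors, were 9.44-fold, 7.21-fold and 7.19-fold higher. The master activators HSFA1A, HSFA1B and HSFA1D differed by 0.31, 0.21 and 0.65, short of 2-fold, while HSFA1E passed it at 1.17 ± 0.21. HSFA3, HSFA5 and HSFA9 did not reach 2-fold, with 0.89, 0.18 and -0.83. HSFC1 (-1.92) and HSFB4 (-2.66), a regulator of root stem cell divisions, were lower. HSFA6A had a bound of only 1.19-fold, and HSFB3 was at background on both arrays.

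The ATP-driven chaperones and their partners were higher in most cases. Of 16 HSP70 genes, 10 were higher and none lower (median 1.67), of 16 HSP90, HSP100 and chaperonin genes 12 were higher and none lower (median 1.99), and of 17 co-chaperone and heat tolerance genes 13 were higher and 1 lower (median 2.29). HSP70 was 97.5-fold higher, with 1141 against 111266. HSP101, the disaggregase needed for acquired heat tolerance, had 315 after acetonitrile, 31074 after (E)-2-pentenal, 28576 after 3-hepten-2-one and 65756 after crotonaldehyde, so all 3 volatiles lay above the solvent and crotonaldehyde highest. HSP90.1, the heat-inducible cytosolic HSP90, was 129.7-fold higher, while the constitutive HSP81-2 and HSP90.4 were 8.65-fold and 8.47-fold higher. For HSP90.4 a second probe gave 1.25. SHD, the HSP90 of the endoplasmic reticulum, differed by 0.43. CLPB4, the mitochondrial disaggregase, was 13.9-fold higher. HSP70-14, a cytosolic HSP110-type protein, differed by 0.03 with its brightest probe. Of its 5 probes, the 4 measured on both arrays ranged from -0.05 to 2.18, so its call depends on the probe.

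Among the partners, HOP3 had 219 against 50351 and BAG6 689 against 136058. ROF2, an immunophilin that binds HSP90, was 83.1-fold higher, FES1A, which keeps HSP70 from being degraded, 77.1-fold, and MBF1C, a transcriptional coactivator of heat tolerance, 41.8-fold. APX2, a heat-induced ascorbate peroxidase, was at background after acetonitrile and at least 8.19-fold higher. GOLS2, which makes galactinol, was lower at 513 against 249.9, but not by 2-fold with median scaling, quantile normalization, cyclic loess or normexp correction.

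In the endoplasmic reticulum the same was seen to a smaller degree. Of 23 measured genes of folding and the unfolded protein response, 11 were higher and none lower (median 0.94). ERDJ3A, a J-domain partner of BiP, was 77.9-fold higher, 37.8 against 2942. The transcription factors BZIP28 and BZIP60 were 3.5-fold and 2.91-fold higher, ERO1, which oxidises disulfide isomerases, 3.41-fold and the disulfide isomerase PDIL1-2 2.62-fold. BIP3, the strongly inducible BiP, was at background after acetonitrile and reached only 55.1, at least 5.8-fold higher. The calreticulin CRT1a differed by 0.06.

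The machinery that removes proteins showed no such differences. None of 47 subunits of the 26S proteasome passed 2-fold in either direction, with a range from -0.91 to 0.70 and a median of -0.31. None of 17 autophagy genes did (range -0.83 to 0.80, median 0.18). These counts of 0 held closely but not exactly under other settings: 3 subunits of the proteasome were called lower with the authors' scaling, 1 lower with quantile normalization and 1 higher with median scaling, and 1 autophagy gene was called under each of median scaling, normexp correction and the mean over probes. Of 9 ribosome biogenesis genes, 1 was higher (AT5G15550, 1.08).

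**Figure D3:**
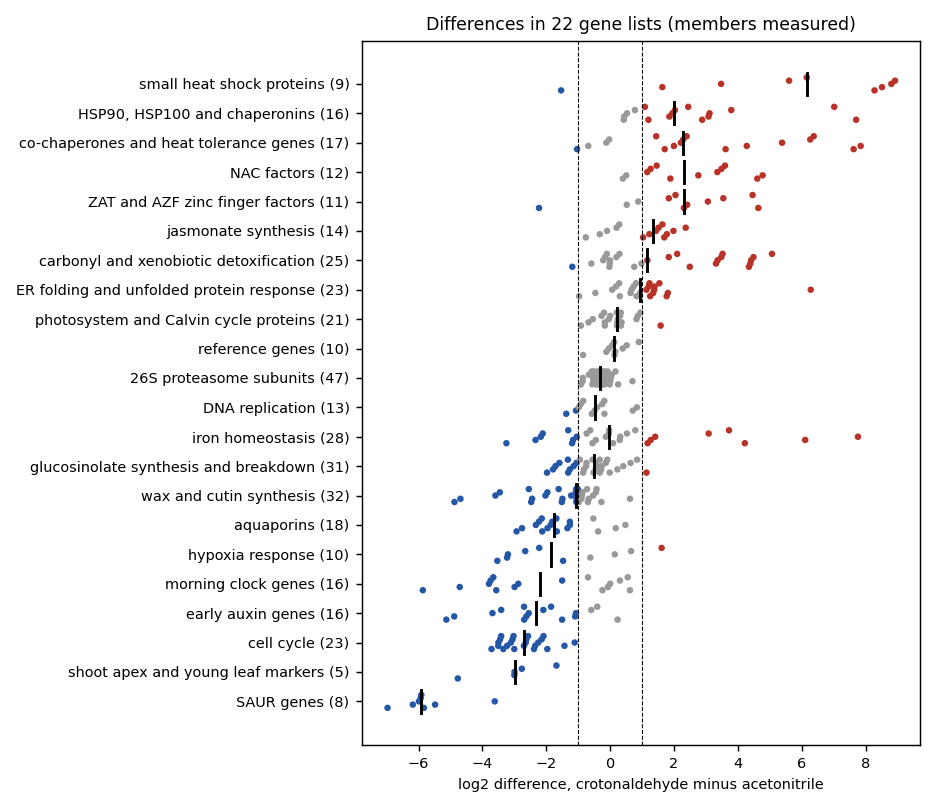
Log2 difference, crotonaldehyde minus acetonitrile, of each gene well above background on both arrays (points) in 22 gene lists, with the number measured in brackets, 1 array per group. Red points are at least 2-fold higher, blue points at least 2-fold lower, and the black bar is the list's median, which runs from 6.16 for small heat shock proteins to -5.92 for SAUR genes.

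Transcription factors chosen for their fast stress responses were mostly higher. Of 12 measured NAC factors of a chosen list, 10 were higher and none lower (median 2.32). By RefSeq symbol 45 NAC genes were measured, of which 10 were higher and 10 lower (median -0.01). Of 11 zinc finger proteins named ZAT or AZF, 8 were higher and 1 lower (median 2.31). ANAC102 and ANAC032, which have been linked to detoxification of reactive carbonyls, were 27.4-fold and 24.4-fold higher, and ATAF1 and ATAF2 12.1-fold and 11.2-fold. Each of these 4 stood at a similar level after all 3 volatiles: ATAF2 had 8525 after acetonitrile, 93285 after (E)-2-pentenal, 99650.2 after 3-hepten-2-one and 95561 after crotonaldehyde. ANAC055, a target of jasmonate signalling, was different: its scaled signals were 293 after acetonitrile, 107 after (E)-2-pentenal, 202 after 3-hepten-2-one and 2999.7 after crotonaldehyde, high on the crotonaldehyde array only. NAP and ORE1, which promote leaf senescence, were at background after crotonaldehyde, at least 15.1-fold and 12.7-fold lower. ZAT6, ZAT12 and ZAT10 were 25-fold, 22-fold and 11.7-fold higher. ZAT11 was 8.34-fold higher, but at 216 remained below its 1199.8 and 3735 after the other volatiles.

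Of 9 DREB and CBF factors, 5 were higher and 2 lower. DREB2A, which links heat and drought responses, had 451 after acetonitrile, 22004 after (E)-2-pentenal, 3809 after 3-hepten-2-one and 41708 after crotonaldehyde. DREB2C was 28.8-fold higher and DREB2B 5.29-fold. DDF1 was 5.89-fold higher, and its neighbour in the family DDF2 was lower at 444 against 95.7. CBF3, a regulator of cold acclimation, was higher (1.13) and CBF2 lower (-1.21), both close to 2-fold. Only 1 gene of the list was lower with median scaling, quantile normalization, cyclic loess or normexp correction. The number higher was 6 with median scaling and 4 with the authors' scaling. Among 18 cold and dehydration genes 4 were higher and none lower, namely the chloroplast protectants COR15A (5.09-fold) and COR15B (3.87-fold) and the dehydrins COR47 (2.16-fold) and ERD10 (2.12-fold).

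Of 19 measured genes of ethylene synthesis and response, 12 were higher and 2 lower. ERF6, ERF104, ERF13 and ERF5 were 7.42-fold, 6.52-fold, 6.26-fold and 5.53-fold higher. RRTF1, a redox-responsive factor also called ERF109, had 4345 after acetonitrile, 4249 after (E)-2-pentenal, 1615 after 3-hepten-2-one and 31567 after crotonaldehyde, high on the crotonaldehyde array only. ORA59, which joins the ethylene and jasmonate branches of defence, was at background after crotonaldehyde and at least 34.6-fold lower. RAP2.3 was lower at 46927 against 13082, as it was after the other volatiles at 15095 and 8529.9. Of 23 measured WRKY factors of a chosen list, 8 were higher and 2 lower, with WRKY40 and WRKY33 8.19-fold and 8.15-fold higher. By RefSeq symbol 49 WRKY genes were measured, of which 10 were higher and 7 lower (median -0.07). Of 14 calcium, touch and MAP kinase genes, 9 were higher and none lower. The calmodulin-like proteins CML37 and CML38 were 38-fold and 8.43-fold higher, and the MAP kinase kinase MKK9 4.6-fold. MPK6 differed by 0.26.

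Jasmonate is made from plastid lipids by lipoxygenase, allene oxide synthase and allene oxide cyclase, and its signal is held back by JAZ repressors that are themselves jasmonate-induced. Of 14 genes of its synthesis, 9 were higher and none lower (median 1.33), while the medians after (E)-2-pentenal and 3-hepten-2-one, against the same control array, were -0.26 and 0.50. LOX3 had 15895 after acetonitrile, 17075 after (E)-2-pentenal, 30620.3 after 3-hepten-2-one and 82028 after crotonaldehyde. LOX4, AOC1, AOC3 and AOC2 were 3.95-fold, 3.42-fold, 3.24-fold and 3.11-fold higher. LOX2 had 156724 against 146399, a difference of -0.10. Of 21 genes of jasmonate signalling and turnover, 11 were higher and 2 lower (median 1.05). JAZ7 had 4447 after acetonitrile, 2212 after (E)-2-pentenal, 1933 after 3-hepten-2-one and 32551 after crotonaldehyde, and JAZ8 907 against 6035. JAZ1 was 3.77-fold higher and CYP94C1, which oxidises the active hormone, 4.11-fold. MYC4, an activator of the pathway, was lower (-1.48, with -0.58 for its other probe), as was JRG21 (-1.99).

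Several late targets of the same hormone were lower. Of 11 measured defensin, storage and PR protein genes 2 were higher and 9 lower, with a median of -3.29. THI2.1, a thionin, had 3112 against 37.9, PDF1.2, the defensin used as a marker of the ethylene and jasmonate branch, 1868 against 57.3, and VSP1, a vegetative storage protein, 153407 against 15070.1. PDF1.2 was lower after (E)-2-pentenal too, at 31.3, and not after 3-hepten-2-one, at 1815. PR2 and PR5, markers of salicylic acid, were 4.28-fold and 2.69-fold higher, and PR1 was at least 8.49-fold higher from background. Of 15 salicylic acid genes 3 were higher and none lower, namely the receptors NPR3 and NPR4 (3.16-fold and 3.36-fold) and CBP60G (2.84-fold). Of 18 abscisic acid genes, 4 were higher and 2 lower, and the synthesis enzyme NCED3 had 76.5 against 74.9.

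Genes induced by low oxygen were mostly lower. Of 10 measured, 1 was higher and 6 lower, with a median of -1.85. LBD41 had 205 after acetonitrile, 282 after (E)-2-pentenal, 139 after 3-hepten-2-one and 17.7 after crotonaldehyde, and HB1, a haemoglobin, 1589 after acetonitrile, 1694 after (E)-2-pentenal, 512 after 3-hepten-2-one and 173 after crotonaldehyde. PCO1 and PCO2, the cysteine oxidases that mark low-oxygen factors for degradation, were 9.37-fold and 6.32-fold lower, and HRA1, which dampens the response, 4.66-fold lower. PDC1 was at background after crotonaldehyde and at least 4.14-fold lower. ADH1, the alcohol dehydrogenase of fermentation, did not differ by 2-fold at 481 against 532, and SUS1, a sucrose synthase, was 3.06-fold higher. Apart from HB1 the lower genes were dim on the acetonitrile array, and lower calls were frequent among genes dim by the mean of the 2 arrays.

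Enzymes that dispose of reactive carbonyls and foreign compounds were higher in some families, and near the background share in others. Of 25 genes of carbonyl and xenobiotic detoxification, 13 were higher and 1 lower (median 1.17). CYP81D11, a cytochrome P450 induced by many xenobiotics, had 243 after acetonitrile, 8328 after (E)-2-pentenal, 19237 after 3-hepten-2-one and 8156 after crotonaldehyde. The glucosyltransferases UGT73B3, UGT73B5, UGT73B2 and UGT73B4 were 22.5-fold, 21.3-fold, 21-fold and 20.3-fold higher. All 5 had signals after crotonaldehyde at or under those after the other volatiles. AKR4C9, an aldo-keto reductase able to reduce small aldehydes, was lower at 64.7 against 28.5, whereas it stood at 171 and 328 after the other volatiles. No gene of this list was lower with median scaling, quantile normalization, cyclic loess or normexp correction.

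Of 20 tau class glutathione S-transferases, 7 were higher and 3 lower, and of 10 of the phi class 4 were higher and 1 lower. GSTU7 had 1388 against 19704, GSTU1 216 against 1912 and GSTU5 13882 against 96510.1. GSTU24 was 3.89-fold higher, with 163 after acetonitrile, 2158 after (E)-2-pentenal, 4340.5 after 3-hepten-2-one and 633 after crotonaldehyde. GSTU17 was lower at 1505 against 355. GSTF12, which carries anthocyanins to the vacuole, was at background after crotonaldehyde and at least 123-fold lower. GSTF7 and GSTF8 were 7.94-fold and 4.2-fold higher. Of 14 aldehyde dehydrogenases, 2 were higher and 1 lower, a share near the background: ALDH3I1 (1.31), ALDH5F1 (1.31) and ALDH2B7 (-1.35).

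Of 26 genes of sulfate assimilation and glutathione supply, 5 were higher and 3 lower. APR3 and APR1, reductases at the controlling step of assimilation, were 9.8-fold and 3.03-fold higher, and LSU2, a sulfur deficiency marker, 3.59-fold. SERAT2;1, which feeds cysteine synthesis, had 2126 after acetonitrile, 41762 after (E)-2-pentenal, 60928 after 3-hepten-2-one and 12187 after crotonaldehyde. SULTR1;2, a sulfate importer of roots, and sulfite reductase SIR were lower (-1.27 and -1.02), but no gene of the list was lower with median scaling, and 1 was with normexp correction. Of 21 peroxide and superoxide genes 7 were higher and 7 lower. The kinase OXI1 was 14.3-fold higher, the glutaredoxin GRX480 10.4-fold, the dehydroascorbate reductase DHAR2 7.86-fold, the thioredoxin TRX-H5 4.96-fold and the glutathione peroxidase GPX6 3.48-fold. Lower were the catalases CAT1 (43216 against 12699) and CAT2 (26491 against 7114), the plastid superoxide dismutase CSD2 (20445 against 8067) and its copper chaperone CCS (2415 against 932). Of 11 genes of mitochondrial retrograde signalling 4 were higher and 2 lower. The alternative oxidase AOX1A was 2.15-fold higher and the NADH dehydrogenase NDB2 5.58-fold, and NDA1 was 3.4-fold lower.

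Iron genes were found in both directions. The factors of the Ib group of bHLH proteins switch on iron uptake when iron is short, BTS is a ubiquitin ligase that restrains it, and ferritins store iron. Of 28 measured iron genes 8 were higher and 8 lower, with a median of -0.04. BHLH100 had scaled signals of 9.88 after acetonitrile, 1.84 after (E)-2-pentenal, 3.47 after 3-hepten-2-one and 2146 after crotonaldehyde, and its acetonitrile value was close to the faintest signal counted as well above background, 9.49. BHLH38 had 15.7 after acetonitrile, 12 after (E)-2-pentenal, 23 after 3-hepten-2-one and 1083 after crotonaldehyde. BHLH39 and BHLH101 were not well above background after acetonitrile and reached 856 and 850.0, at least 90.2-fold and 59.6-fold higher. All 4 factors were thus high on the crotonaldehyde array and near background on the other three. BTS had 247 after acetonitrile, 247 after (E)-2-pentenal, 328 after 3-hepten-2-one and 2100.2 after crotonaldehyde. AT1G47400 and AT1G47395 of the same list were 18.6-fold and 13.2-fold higher. The ferritins FER1 and FER4 were lower, at 2039 against 214 and 6978 against 1548. NAS1, which makes the metal chelator nicotianamine, was at background after crotonaldehyde from 1367, at least 136-fold lower, and NAS3 was 4.32-fold lower. BHLH104, a regulator upstream of the Ib group, differed by -0.03.

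**Figure D4:**
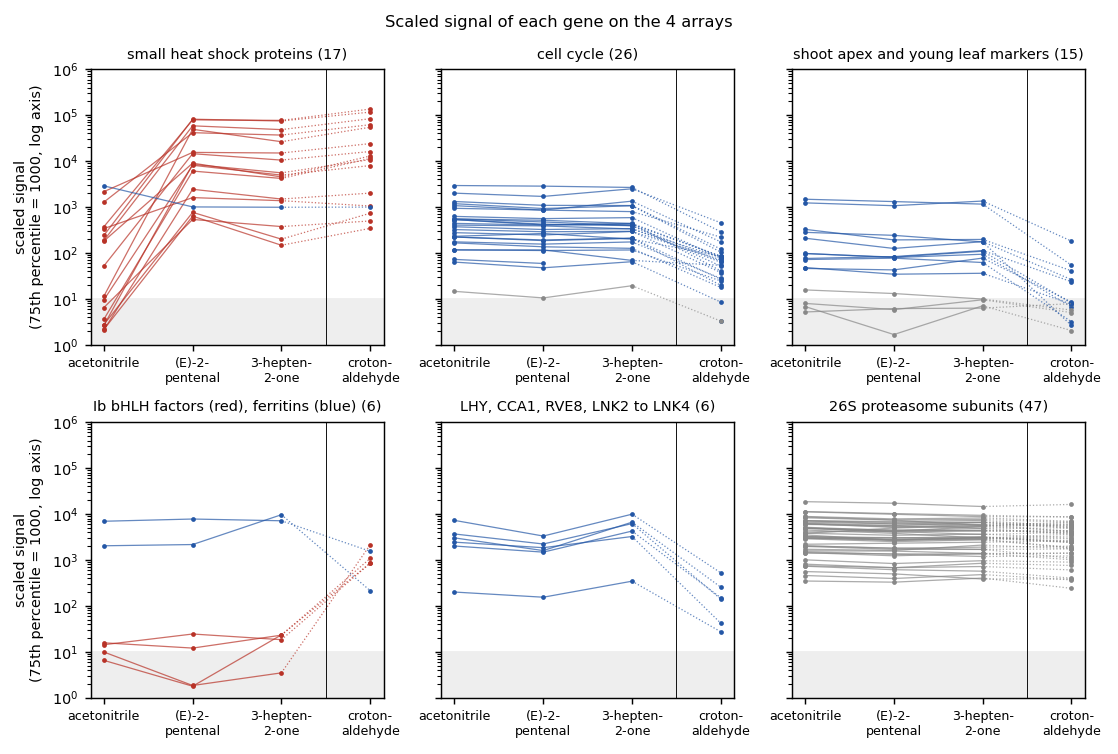
Scaled signal of each gene (points, joined by gene) on the 4 arrays, 1 array per group, log axis, with the number of genes in brackets and the slide boundary as a vertical line. Red genes are at least 2-fold higher and blue genes at least 2-fold lower after crotonaldehyde than after acetonitrile, bounds included, and the grey band lies near background. Most small heat shock proteins are higher on all 3 volatile arrays than on the acetonitrile array, whereas cell cycle, shoot apex, Ib bHLH, ferritin and morning clock genes part from the other arrays on the crotonaldehyde array.

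The 14 genes most below acetonitrile differed by 61.2-fold to 596-fold, and all 14 genes were at least 2-fold below each of the other 3 arrays as well. PDF1, a proline-rich protein of the outermost cell layer of the shoot, had 12132 after acetonitrile, 10295 after (E)-2-pentenal, 11968 after 3-hepten-2-one and 20.3 after crotonaldehyde. Of its 5 probes, the 3 measured on both arrays ranged from -9.22 to -3.97. AT2G33850 had 12830.1 after acetonitrile, 14978 after (E)-2-pentenal, 12457 after 3-hepten-2-one and 23.3 after crotonaldehyde, and AT4G29030 13879 after acetonitrile, 15331 after (E)-2-pentenal, 13074 after 3-hepten-2-one and 48.5 after crotonaldehyde, both without a symbol in RefSeq. PYK10, the glucosidase of ER bodies, had 17818 after acetonitrile, 8423 after (E)-2-pentenal, 31450.0 after 3-hepten-2-one and 56.4 after crotonaldehyde. LTP6, a lipid transfer protein, had 10596 against 139, DR4, a protease inhibitor-like protein, 6175 against 73.9 and ADS1, a fatty acid desaturase, 2960.3 against 24.3. AT3G05727 had 1256 against 12.6, THI2.1 is given above, and MYB113, an activator of anthocyanin synthesis, had 1008 against 14.9. The remaining 4 were the SAUR genes SAUR63, SAUR23, SAUR14 and SAUR64. Among genes at background after crotonaldehyde the greatest bound was that of CYP81F4, an enzyme of indole glucosinolates, whose scaled signal was 16237 after acetonitrile, 7597 with (E)-2-pentenal and 39164 with 3-hepten-2-one, at least 1611-fold lower. It was followed by AT4G22490 (at least 327-fold), DIN11 (197-fold), JAL22 (174-fold), AT4G22513 (157-fold) and CYP77B1 (145-fold), and 64.5% of the 1023 genes seen after acetonitrile only had a bound past 2-fold.

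Every one of the 23 measured genes of the cell cycle list was lower, with differences from -3.72 to -1.11 and a median of -2.70, against 15.1% of all genes lower. The same genes had medians of -0.17 and -0.14 after the other volatiles. Of the 23, 22 were at least 2-fold below each of the other 3 arrays. That held for 64.9% of the 2800 lower genes measured on all 4 arrays, and the same genes are 9.87% of all 18411 genes measured there. As all 23 were lower, only the share of the lower genes is comparable. CYCA1;1, a cyclin of mitosis, had 533 after acetonitrile, 408 after (E)-2-pentenal, 439.7 after 3-hepten-2-one and 40.6 after crotonaldehyde. CDC20.1, which activates the anaphase-promoting complex, had 1183 against 104, HIK, a kinesin of cell plate formation, 1319 against 121, and PLE, a microtubule protein of the dividing cell, 222 against 19.7. Cyclins outside the list were not all lower: CYCD2;1 and CYCD4;2 differed by 0.24 and 0.27, and of 7 measured genes with a CYCA symbol 4 were lower and 1 higher. Within the list CYCA3;1 differed least, at -1.11. Genes of DNA replication behaved otherwise: 2 of 13 were lower, CDT1A (-1.37) and MCM4 (-1.07), a share near the background, and the median was -0.49. Over the other scalings, normexp correction and the mean over probes that count was 0 to 4 and the count of cell cycle genes 21 to 23, with 0 and 21 under normexp correction.

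Regulators of the shoot tip and of young leaves were lower with them. All 5 measured members were lower, and 6 of the 7 seen after acetonitrile only had a bound past 2-fold. GIF1, a coactivator of leaf cell proliferation, had 1479 after acetonitrile, 1315 after (E)-2-pentenal, 1157 after 3-hepten-2-one and 54.1 after crotonaldehyde, and its partners GRF1 and GRF2 had 326 against 40.8 and 209 against 26.2. ANT, which prolongs organ growth, had 1232 against 181 and CUC3, a boundary gene, 75.8 against 23.6. STM, which maintains the meristem, had 281 after acetonitrile, 242 after (E)-2-pentenal, 174 after 3-hepten-2-one and 2.63 after crotonaldehyde, at least 27.9-fold lower. KNAT1 and KNAT6, of the same homeobox class, were at least 9.68-fold and 9.61-fold lower. CLV3 and WUS, the defining genes of the stem cell niche, were at background on all 4 arrays.

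Auxin-responsive genes were mostly lower. SAUR genes encode small proteins that drive cell expansion within minutes of an auxin signal. The list held a selection of the family, and all 8 of its genes measured on both arrays were lower, with a median of -5.92, and the 8 seen after acetonitrile only all had bounds past 2-fold. SAUR63 had 2933 after acetonitrile, 221 after (E)-2-pentenal, 383 after 3-hepten-2-one and 23.4 after crotonaldehyde, and SAUR14 6069 after acetonitrile, 1117 after (E)-2-pentenal, 1449 after 3-hepten-2-one and 95.6 after crotonaldehyde. They were lower after the other volatiles as well, with medians of -2.87 and -2.37 for the same 8 genes. By RefSeq symbol 8 SAUR genes were measured on both arrays, not all of them in the list, of which 6 were lower. SAUR28 did not reach 2-fold (-0.94), and SAUR21 was higher at 153 against 389. Neighbouring SAUR genes are alike in sequence and their probes may share signal. Of 16 early auxin genes, a chosen list that holds some Aux/IAA repressors and GH3 conjugating enzymes, 13 were lower and none higher (median -2.32). GH3.3 had 935 after acetonitrile, 517 after (E)-2-pentenal, 1980.4 after 3-hepten-2-one and 26.7 after crotonaldehyde, GH3.6 994 against 33.7 and IAA6 1729.8 against 134. Of all 16 measured genes with an IAA symbol in RefSeq, 7 were lower and none higher, with a median of -0.47, so most did not reach 2-fold. IAA16 differed by 0.23. Of 8 genes of auxin synthesis and transport, 7 were lower, among them the exporters PIN3 (-2.11) and PIN7 (-1.57), the importer LAX3 (-1.98) and the kinase PID (-1.65). The synthesis enzyme TAA1 differed by 0.30.

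Of 23 cytokinin, gibberellin and brassinosteroid genes, 11 were lower and 1 higher. The response regulators ARR9, ARR7 and ARR8, early targets of cytokinin, were 13.7-fold, 6.31-fold and 3.94-fold lower, BR6OX2, a brassinosteroid synthesis enzyme, 9.94-fold and GASA4 6.13-fold. Wall-loosening genes were lower too: 10 of 13 expansins (median -1.48) and 12 of 18 xyloglucan endotransglucosylases (median -1.30), with 1 of the latter higher. EXPA1 had 2711 after acetonitrile, 2103 after (E)-2-pentenal, 2393 after 3-hepten-2-one and 249 after crotonaldehyde, and XTH16 8000.0 after acetonitrile, 5042 after (E)-2-pentenal, 8730.3 after 3-hepten-2-one and 430.1 after crotonaldehyde. XTH9 was 9.55-fold lower. XTH23 was the higher one, at 3189 after acetonitrile, 9145 after (E)-2-pentenal, 8559.8 after 3-hepten-2-one and 16899 after crotonaldehyde. By RefSeq symbol XTH31, outside the list, was higher too, at 470 against 2127. Of 8 cellulose synthases, the 3 that build the secondary walls of vessels and fibres were lower, CESA4 (-1.70), CESA7 (-1.75) and CESA8 (-1.82). The other 5 did not reach 2-fold, and CESA3, of the primary wall, had 11029.6 against 10806. The count was 3 under the other scalings tried, and 2 with normexp correction.

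Most genes of the epidermis and its cuticle were lower, and none was higher. Of 7 epidermis identity genes 5 were lower. PDF1 led, and MYB106 and MYB16, regulators of cuticle and cell outgrowth, had 507 against 28.7 and 1117 against 94.1. PDF2, the homeodomain factor that specifies the layer, did not differ by 2-fold at 7176 against 6427. Of 32 wax and cutin genes 20 were lower (median -1.06), and 12 with median scaling. CYP86A4 and DCR, which make and join cutin monomers, had 1238 against 42.2 and 5413 after acetonitrile, 5829 after (E)-2-pentenal, 5954 after 3-hepten-2-one and 209.9 after crotonaldehyde. CER1, which makes the wax alkanes, had 15997 against 1458, and MAH1, which oxidises them, was at background after crotonaldehyde, at least 20.9-fold lower. CYP77A6 was 12.1-fold lower. FATB, which releases the fatty acid precursors throughout the plant, differed by -0.27.

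Of 18 aquaporins, channels for water across the plasma and vacuolar membranes, 14 were lower and none higher (median -1.75), and 12 were at least 2-fold below each of the other 3 arrays. PIP2;7 had 64012 after acetonitrile, 47976 after (E)-2-pentenal, 61276 after 3-hepten-2-one and 12759.9 after crotonaldehyde. TIP2;1, of the vacuolar membrane, had 188842 against 42806, and PIP1;1 18655 against 2754. PIP2;3 differed by 0.18, and probes of close PIP genes may share signal.

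Pathways of specialised metabolism were lower in part. Of 19 measured phenylpropanoid and flavonoid genes 10 were lower and none higher, and 3 more were at background after crotonaldehyde. CHS, which commits carbon to flavonoids, had 2436 after acetonitrile, 2459 after (E)-2-pentenal, 7732 after 3-hepten-2-one and 492 after crotonaldehyde, and F3H 1173 against 208. The late anthocyanin enzymes DFR, UF3GT and LDOX were at background after crotonaldehyde from 1246, 844 and 138, at least 124-fold, 83.8-fold and 13.7-fold lower. PAL4 was 14.4-fold lower. The repressor MYBL2 was also lower, at 2955 against 319, and the activator MYB111 differed by 0.02. Of 31 glucosinolate genes 9 were lower and 1 higher. The myrosinase TGG2, which cleaves glucosinolates, had 70302 against 17863, and MYB29, which activates the aliphatic branch, 1138 against 348. The sulfotransferase SOT16 was the higher one (1.14). In the ER body list PYK10 was joined by NAI2 (974 against 311), which builds the bodies, and PBP1 (23672 against 8417), while NAI1, their transcriptional activator, differed by 0.32.

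In the circadian clock the morning and evening arms differed in direction. Of 16 measured morning genes 9 were lower and none higher (median -2.19), and of 13 afternoon and evening genes 6 were higher and 1 lower (median 0.54). LHY and CCA1, the paired morning repressors, had 2446 after acetonitrile, 1853 after (E)-2-pentenal, 3248 after 3-hepten-2-one and 41.9 after crotonaldehyde and 2014 after acetonitrile, 1482 after (E)-2-pentenal, 4265 after 3-hepten-2-one and 150.4 after crotonaldehyde. The coactivators LNK3, LNK4 and LNK2 were 26.2-fold, 13.9-fold and 11.9-fold lower, and LNK1 differed by -0.24. RVE8 and RVE1 were lower (-2.88 and -2.99), as were CDF3 (-3.66) and CDF2 (-1.50). PRR9 was at background after crotonaldehyde, at least 6.34-fold lower. PRR7 (-0.07), RVE4 (-0.69), RVE7 (-0.00), RVE2 (0.55), AT5G52660 (0.31) and CDF1 (0.62) did not reach 2-fold.

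The evening complex, which represses growth genes and other clock genes, is made of ELF3, ELF4 and LUX, and these had 1069 against 2452, 3526 against 11965 and 1783 against 4049. PRR3 had 429 after acetonitrile, 437 after (E)-2-pentenal, 4.98 after 3-hepten-2-one and 1709 after crotonaldehyde, and TOC1 1152 after acetonitrile, 1295 after (E)-2-pentenal, 319 after 3-hepten-2-one and 2627 after crotonaldehyde. BOA was 2.94-fold higher. GI, ZTL, FKF1 and PRR5 differed by 0.41, 0.26, 0.18 and 0.12, and GRP7 and GRP8 by 0.50 and 0.54. CHE was lower at -1.15. After 3-hepten-2-one the same evening genes had a median of -2.05 against the shared control. The hour at which each group was treated is not stated in the sources used here, so its part in these differences was not tested.

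**Figure D5:**
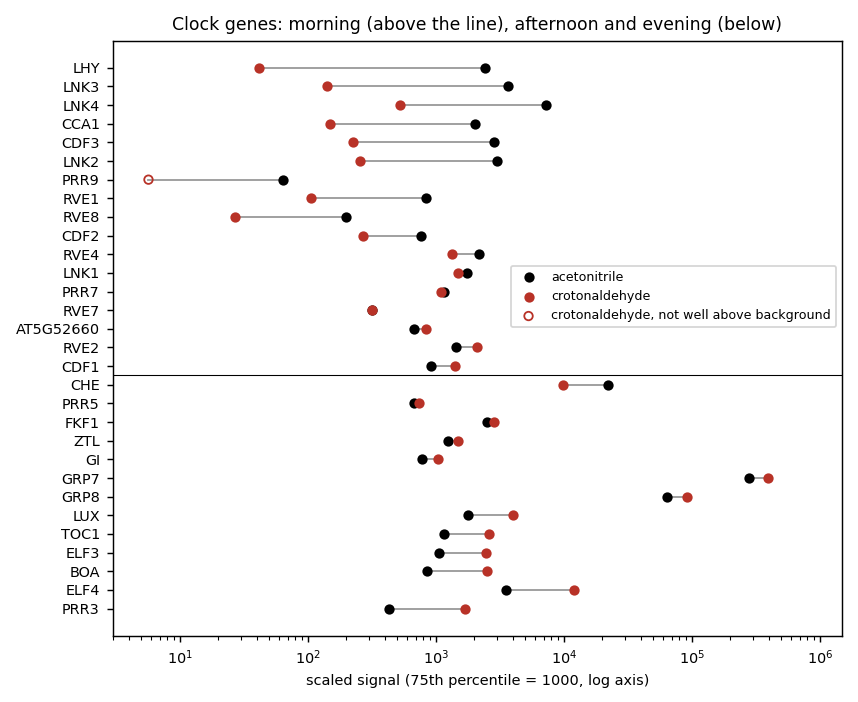
Scaled signal (x axis, log scale) of 30 clock genes after acetonitrile (black) and crotonaldehyde (red, open where not well above background), 1 array each. Of the 16 morning genes measured on both arrays, 9 lie at least 2-fold to the left after crotonaldehyde, LHY farthest, and 6 of the 13 afternoon and evening genes at least 2-fold to the right.

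Light signalling and pigment genes were lower as well, and the photosystems were not. Of 11 light and shade regulators 7 were lower and none higher, with PIF5, a promoter of elongation, at 2945 against 512 and PAR1 at 3018 after acetonitrile, 447 after (E)-2-pentenal, 392 after 3-hepten-2-one and 345 after crotonaldehyde. HY5 differed by -0.28. Of 22 light-harvesting proteins 8 were lower and 2 higher. LHCB2.3 had 65368 after acetonitrile, 44419 after (E)-2-pentenal, 83288 after 3-hepten-2-one and 3929 after crotonaldehyde, and LHCB4.3 was the main exception at 1375 against 10888. LHCB1.2 differed by -0.09, and the probes of the LHCB1 genes may share signal. Of 10 chlorophyll synthesis genes 5 were lower, among them HEMA1 (14409.8 against 3193), which sets the rate of the pathway, and CH1, the chlorophyll b enzyme (7092 against 1442). Of 21 photosystem and Calvin cycle genes 1 was higher, GAPB (1.58), and none lower, with 4 higher under median scaling, 2 under normexp correction, and 1 lower under each of quantile normalization, cyclic loess and the authors' scaling. Of 7 sugar starvation genes 4 were lower, with DIN1 at 2957 against 121 and the asparagine synthetase ASN1 at 2324 against 269.

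Set beside the other 2 volatiles, the higher and the lower genes were unlike, with this scaling, in how far the crotonaldehyde array stood alone. Each volatile was read against the same acetonitrile array, so the comparisons are not independent and are given side by side. Of the 1637 higher genes measured on all 4 arrays, 526 (32.1%) were at least 2-fold above each of the other 3 arrays (2.86% of the 18411 genes). Of the 2800 lower genes, 1817 (64.9%) were at least 2-fold below each of the other arrays (9.87% of the 18411 genes). For these genes slide and treatment divide the arrays in the same way. Acetonitrile is among the other 3 arrays, so every such gene is by rule already a higher or a lower gene. The shares of the 18411 genes thus count the same genes again and are no background for 32.1% and 64.9%. Whether the contrast between 32.1% and 64.9% rests on the scaling was not tested. Of the higher genes, 549 also exceeded 2-fold with (E)-2-pentenal and 524 with 3-hepten-2-one. Among the lower genes, 223 and 249 were also lower after those volatiles. The shares of all genes past 2-fold after those volatiles were not counted, so whether these overlaps exceed them was not tested.

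The 10 reference genes used for normalisation in Arabidopsis lay within 2-fold, from -0.85 to 0.90 with a median of 0.13, and 1 of them passed 2-fold under each of median scaling, quantile normalization and the mean over probes. Of 1109 genes past 2-fold that had at least 2 probes measured on both arrays, all probes pointed the same way for 1091. These values bear on the measurement of the 2 RNA pools and not on the variation between plants, which was not measured.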

How the data were processed

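Total RNA from 1 pool of at least 6 plants per group was labelled with Cy3 and read on 1 one-colour Agilent array per group, per the labels' protocols. The values deposited per array are linear spot intensities from which the authors' scanner software had subtracted the background, with no scaling between arrays. That software was Feature Extraction, version 10.10.1.1 per the file headers and version 9.1 per the submitters' processing notes. Other deposited columns hold flags of 0 or 1 for outliers, for saturation, which no spot reached, and for a signal well above background. The authors' deposited table holds linear intensity too, each column being the processed signal times 1 constant. The number of arrays limits the precision.

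Each array of 43803 non-control spots was put on the log2 scale minus its 75th percentile, with outlier spots dropped and repeat spots averaged. Of the spots, 34476 matched 1 locus of the RefSeq gene table (TAIR10.1, used for names only) by unversioned accession. The brightest probe stood for a gene. Groups came from the sample titles. With 1 array per group there was no test, so 2-fold was the size rule, and the steps were tested on simulated data with planted differences. Named genes were the 14 highest and 14 lowest, the 6 greatest bounds each way, and from each of 57 lists (1032 entries, 1024 with a matched probe) up to 5 members past 2-fold and 3 bounds each way and the least different member. All small heat shock proteins, heat shock factors, clock genes and root markers could be named. Probe ranges, the signals of a few further markers, counts and genes given by RefSeq symbol outside the lists, and lists of stomatal and senescence genes were chosen after their values were seen. The comparison, the lists and the rules were all chosen with earlier results of these data known.

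Alternatives were median scaling, quantile normalization, cyclic loess, normexp background correction (offset 50, on the median spot signal because a mean signal column was not used here), dim probes kept, only the genes above the median signal or detected on all 4 arrays, averaging the probes of a gene, the authors' scaled values, and 1.5-fold and 4-fold rules. Using each other volatile's array in place of acetonitrile was added after the data were seen. Promoters were not analysed here, and 1 gene is not reported here. Tools were Python 3.11.15, numpy 2.4.6, pandas 2.3.3, matplotlib 3.10.9, R 4.3.3 and limma 3.58.1.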

Additional observations from a re-analysis of the deposited data

How the results depend on the processing

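The count of genes higher after crotonaldehyde, 1678, was 1439 to 1949 with quantile normalization, cyclic loess, normexp correction or the mean over probes, and 1291 with the authors' scaled values. It was 2923 with median scaling, 3872 with no filter on dim probes, 1036 among the 9277 genes above the median signal, 3537 at 1.5-fold and 422 at 4-fold. The count of genes lower after crotonaldehyde, 2809, was 689 among the genes above the median signal, 4354 at 1.5-fold and 987 at 4-fold, and stayed within 1.5 times under the other planned settings. With another array in place of acetonitrile, an alternative added after the data were seen, 1072 genes were higher and 2524 lower against (E)-2-pentenal, and 1833 and 2948 against 3-hepten-2-one. Higher genes were 28.2% of those past 2-fold with the authors' scaled values, 59.1% with median scaling and 38.2% to 45.4% with the other scalings. Of the 289 genes that the naming rule takes past 2-fold on both arrays, 266 to 284 stayed past 2-fold under each of the 6 scalings and probe rules. None changed direction, but median scaling and the authors' scaled values shift every gene alike, by 0.32 and -0.15. No gene past 2-fold could change direction under those settings. The naming rule also favours large differences, so these counts do not stand for all called genes. Of the list medians past 2-fold, 1 changed sign: the hypoxia list had a median of 1.13 among its 2 genes above the median signal. Among lists with at least 3 genes called in a direction, the number of lower members moved by over 1.5 times for the wax and cutin list (12), the glucosinolate list (5), the iron list (4) and the sulfate list (0) with median scaling, for the sulfate list (1) with normexp correction and for the tau glutathione S-transferases (5) with the authors' scaled values. The number of higher members did so for the salicylic acid list (7) with median scaling and the cold list (7 with median scaling, 2 with quantile normalization and the authors' scaled values). Counts of 1 or 2 moved by as much in many lists, such as the lower ethylene genes (4 with the authors' scaled values). No paired analysis was possible because each group has 1 array. The promoter motif search was not run, since no promoter sequences were used here. Neither the spread between plants nor the slide could be measured, and genes close to background, such as BHLH100 after acetonitrile, have imprecise folds.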

Other observations

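Families named by a shared RefSeq symbol stem were scanned after the values had been seen, and no test was made. Of 265 families with at least 6 measured genes, 18 had at least 60% of their members at least 2-fold lower after crotonaldehyde, and 1, the HSP family, had as many higher (14 of 18), against 15.1% and 9.04% of all genes. Several of the 18 are described with the lists of the report. Among the others were the BBX proteins, B-box factors of light and clock signalling, with 11 of 16 lower and 2 higher: BBX28 had scaled signals of 2061 against 141 (acetonitrile against crotonaldehyde) and BBX15 6166 against 568, while BBX13 had 2259 against 12299.8. Of 10 HTA genes, which encode histone H2A, 7 were lower, and the differences of the 10 ran from -1.65 to -0.22. Among the lower ones HTA10, HTA2, HTA11 and HTA6 lay close to 2-fold, from -1.17 to -1.12. HTA4 was close to background, at 29.5 against 11.2. Of 8 D-type cyclins 6 were lower, and CYCD3;1 had 1072 after acetonitrile, 859 after (E)-2-pentenal, 1343 after 3-hepten-2-one and 174 after crotonaldehyde. Of 6 LSH genes, of which LSH3 and LSH4 act at organ boundaries, 5 were lower, LSH4 at 631 after acetonitrile, 706 after (E)-2-pentenal, 597 after 3-hepten-2-one and 93.1 after crotonaldehyde. Of 10 laccases, enzymes that polymerise lignin, 7 were lower. Of these LAC3, LAC12, LAC10, LAC2 and LAC6 were dim, with signals of 52.0 to 131 after acetonitrile and 11.1 to 42.0 after crotonaldehyde. Lower calls were frequent among dim genes. Of 6 CSLA genes, of mannan synthesis, 5 were lower, with CSLA07, CSLA11 and CSLA14 close to 2-fold at -1.01, -1.28 and -1.29.

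A list of 14 genes of the stomatal lineage, added after the values were seen, held 8 measured on both arrays, of which 6 were lower and none higher (median -1.18), and 6 seen after acetonitrile only, all with bounds past 2-fold. TMM, a receptor-like protein that patterns stomata, had 1617 after acetonitrile, 717 after (E)-2-pentenal, 866 after 3-hepten-2-one and 27.8 after crotonaldehyde. SPCH and MUTE, which start and carry forward the lineage, were at background after crotonaldehyde from 112 and 96.3, at least 11.1-fold and 9.56-fold lower, and the polarity gene BASL was at least 24.5-fold lower. FAMA, which acts last in the lineage, had 389 against 191, a difference of -1.03. All 14 were well above background on each of the other 3 arrays, where their scaled signals summed to 12656, 8642 and 11126, against 4612 after crotonaldehyde. A list of 8 leaf senescence genes, added in the same way, held 7 measured, with 1 higher (NYC1, 1.05) and 2 lower (SAG13, -2.27, and NYE2, -1.91), and SAG12, the defining marker of age-driven senescence, was at background on all 4 arrays.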
